A study of Mus musculus with 15 samples.

Results

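Oxidative phosphorylation is carried out in the inner mitochondrial membrane by complexes I to V, and most of their subunits are encoded in the nucleus. The nuclear-encoded subunit genes were taken by symbol: Ndufa, Ndufb, Ndufc, Ndufs or Ndufv followed directly by a digit, Sdha to Sdhd, symbols starting with Uqcr, Cox4 to Cox8 followed by a lower-case letter, and symbols starting with Atp5, leaving out pseudogene (-ps) and Rik symbols. This gave 84 of the 35976 genes in the count table: 35 of complex I, 4 of complex II, 8 of complex III, 20 of complex IV and 17 of complex V. The rule reads symbols only. Ndufa4 and Ndufa4l2 are counted with complex IV, where the Ndufa4 protein is now placed. Atp5s and Atp5sl match the rule by name but are not subunits of the ATP synthase.

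The libraries came from nuclei of the ventral tegmental area (VTA) of male heterozygous DAT-Cre mice (B6.SJL-Slc6a3tm1.1(cre)Bkmm/J), aged 8 to 12 weeks per the labels. In these mice the dopamine transporter locus drives Cre. All groups, controls included, carried this allele and had AAV5-DIO-KASH-HA injected into the VTA, with 14 days allowed for expression before the behavioural work, so that Cre-expressing cells carry an HA tag on the nuclear envelope. Tagged nuclei (DA) and untagged nuclei (nDA) were separated by sorting, and each sample pooled tissue of 2 mice. FT DA (n = 4) and FT nDA (n = 4) were taken after 7 days of food training. MN DA (n = 3) was taken after food training, jugular catheter surgery, 5 daily 1-h cocaine self-administration sessions at 0.3 mg/kg per infusion and 10 at 1.0 mg/kg per infusion. CRV DA (n = 4) had the same surgery and sessions and then 21 days of forced abstinence in the home cage. Untagged nuclei were measured in food-trained mice only, and without cocaine-free mice kept for the same time, drug history, surgery, age and time since virus injection cannot be told apart across the stages.

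Complexes I, III and IV pass electrons from NADH to oxygen and pump protons, complex II feeds in electrons from succinate, and complex V, the ATP synthase, uses the proton gradient to make ATP. The complexes are built from nuclear-encoded subunits, imported after translation in the cytosol, and, except for complex II, from subunits encoded in mitochondrial DNA. Midbrain dopamine neurons fire spontaneously and have long, highly branched axons, and are known for a high energy demand and for their sensitivity to inhibitors of complex I.

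Total counts per library were 25813697 to 59046618 in the DA groups and 39306070 to 50174738 in FT nDA, and the members took 0.335% to 0.784% of them. Levels are given in CPM, counts scaled to a library total of 1e6 after TMM scaling. DA libraries had counts for 14841 to 19750 genes and FT nDA for 22733 to 23886. Of 14 dopaminergic markers, 13 were called higher in FT DA than in FT nDA, and their summed level was 6851 to 15093 CPM in the DA libraries against 478 to 729.5 CPM in FT nDA. The untagged group, labelled as neurons, had 9848 to 23351 CPM of 10 oligodendrocyte markers against 1138 to 2806 CPM in the DA libraries, and 1599 to 3108 CPM of 7 microglial markers against 472 to 1023 CPM. FT nDA thus held glial as well as neuronal RNA, and the part of cell composition in the differences was not tested. In such bulk libraries, fewer nuclei of a type and less RNA per nucleus cannot be told apart. Among the libraries, FT DA 1 exceeded the other 3 of its group in 63 of 82 members (76.8%, against 23.4% of all genes tested), and FT nDA 2 exceeded its other 3 in 74 of 82 (90.2%, against 36.3%). The calls lost without FT DA 1, and with both left out, are named after the results by complex.

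Promoters of these genes are known to carry sites for NRF1, GABP and YY1, transcription factors that act on many nuclear genes of the respiratory chain. RefSeq windows of 300 bases (250 before to 50 after the start, GRCm38.p6) were found for 66 of the 84 members, 71 windows in all. NRF1's motif, GCGCA, then any base, then GCGC, was searched on both strands like the others and was in 18 of 71 windows (25.4%) against 4.59% of all 32817 windows. GABP's motif CCGGAAG was in 16 of 71 (22.5%) against 8.86%, and YY1's motif AAGATGGCG was in 7 of 71 (9.86%) against 1.40%. Member windows had a median GC content of 57.3% and all windows 52.7%. The 4 stretches that follow are the exon-free parts upstream of the start of 4 members, shown with any motif in capitals: Uqcr11 (chr10:80406831-80407071, minus strand) and Ndufb8 (chr19:44555443-44555692, minus strand) were called higher in FT DA, Atp5h (chr11:115419963-115420127, minus strand) had the highest mean level per kb over all libraries in complex V, and Cox6a1 (chr5:115348982-115349129, minus strand) held 2 NRF1 sites, of which the upstream one reads the same motif on both strands.
Uqcr11: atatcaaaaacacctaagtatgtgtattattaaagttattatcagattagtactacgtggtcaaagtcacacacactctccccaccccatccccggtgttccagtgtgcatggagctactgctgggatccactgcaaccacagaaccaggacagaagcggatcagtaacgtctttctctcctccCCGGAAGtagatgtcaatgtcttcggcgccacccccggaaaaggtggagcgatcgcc
Ndufb8: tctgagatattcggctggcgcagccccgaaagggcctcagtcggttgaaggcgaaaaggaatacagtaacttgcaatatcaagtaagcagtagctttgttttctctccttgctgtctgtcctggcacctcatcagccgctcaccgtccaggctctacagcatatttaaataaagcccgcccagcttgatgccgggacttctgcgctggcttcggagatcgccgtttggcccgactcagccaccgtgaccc
Atp5h: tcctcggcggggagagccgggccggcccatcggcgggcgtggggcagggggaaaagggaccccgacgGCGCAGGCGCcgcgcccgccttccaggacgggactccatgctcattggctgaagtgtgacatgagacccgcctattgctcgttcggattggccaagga
Cox6a1: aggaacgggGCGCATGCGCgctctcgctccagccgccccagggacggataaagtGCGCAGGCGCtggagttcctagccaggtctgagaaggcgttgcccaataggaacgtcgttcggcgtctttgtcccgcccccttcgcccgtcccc
The capitals mark CCGGAAG in Uqcr11 and the NRF1 motif in Atp5h and Cox6a1, and none of the 3 motifs is in the Ndufb8 stretch. Of the 16 members called higher in FT DA, 14 had a window, and some had more than 1. Among their 16 windows, 4 held the NRF1 motif, 3 the GABP motif and 1 the YY1 motif.

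Levels between members were compared per kb of transcript, as the mean over all 15 libraries. Cox4i1, the subunit IV isoform found in most tissues, had the highest level (272 CPM per kb). Uqcrc1, a core protein of complex III, followed with 170.0 CPM per kb, then Uqcr10 with 165 CPM per kb. The highest by this mean in the other complexes were Atp5h, a peripheral stalk subunit of the ATP synthase (144 CPM per kb), Ndufb8, an accessory subunit of the complex I membrane arm (133 CPM per kb), and Sdhb, the iron-sulfur subunit of complex II (105 CPM per kb). The order of the group means was not the same in all groups, and these differences in order were not tested. In complex I, Ndufb5 led in FT DA (159 CPM per kb against 144 for Ndufb8), and Ndufs7, a core iron-sulfur subunit, led in FT nDA (85.4 against 63.2). In complex II, Sdha was above Sdhb in FT nDA (68.1 and 63.5 CPM per kb). In CRV DA, Atp5b was above Atp5h (152 and 149 CPM per kb), and Uqcr10 and Uqcrc1 were nearly equal (176 and 175 CPM per kb). Subunits of one complex, which stand at fixed ratios in the protein, differed widely: within complex II, Sdhb stood at 105 CPM per kb, Sdha at 70.4 CPM per kb, Sdhd at 44.7 CPM per kb and Sdhc at 10.2 CPM per kb. Many subunit genes have processed pseudogenes of nearly the same sequence, and how reads that match several places were counted is not given in the sources used here, so levels of single members are uncertain to that extent.

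Of the 84 members, 76 had a count in every library, and the other 8 were paralogs of complex IV with low or no counts. Cox8b, a muscle isoform, had 0 counts in all 15 libraries, and Cox8c, a testis isoform, had 45 counts, all in CRV DA 1. Cox6a2 and Cox7a1, isoforms of heart and muscle, and Cox6b2, a testis isoform, peaked at 4.78, 4.09 and 4.71 CPM. Their widely expressed partners were far above them in every library: Cox6a2 reached at most 5.71% of Cox6a1, Cox7a1 at most 9.70% of Cox7a2 and Cox6b2 at most 8.51% of Cox6b1 in CPM. Cox7b2 reached at most 3.23% of Cox7b. Atp5g1, Atp5g2 and Atp5g3 encode the same mature c-ring subunit of the ATP synthase. Atp5g2 was at 4.67% to 22.8% of the CPM of Atp5g1, whereas Atp5g3 was at 59.8% to 117%. Atp5g1 had 135, 96.6, 63.0 and 83.1 CPM in FT DA, 126, 132 and 106 CPM in MN DA, 124, 102, 80.4 and 142 CPM in CRV DA and 45.4, 73.3, 39.8 and 34.9 CPM in FT nDA. Atp5g2 had 6.32, 5.61, 11.5 and 6.65 CPM in FT DA, 8.50, 13.1 and 7.90 CPM in MN DA, 16.7, 12.7, 11.5 and 10.9 CPM in CRV DA and 4.31, 6.73, 9.08 and 6.23 CPM in FT nDA. Atp5g3 had 105, 82.5, 65.4 and 68.6 CPM in FT DA, 84.0, 83.9 and 71.6 CPM in MN DA, 99.9, 66.4, 78.8 and 84.7 CPM in CRV DA and 42.2, 57.0, 45.0 and 40.8 CPM in FT nDA. Atp5g2 was the lowest of the 3 in every library.

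None of Cox6a1, Cox6b1, Cox7a2 and Cox8a, widely expressed subunits of complex IV, was called between FT DA and FT nDA by edgeR, and of these 4 the groups overlapped in all but Cox8a. Cox6a1 had 129, 71.1, 65.5 and 88.0 CPM in FT DA, 70.8, 88.8 and 93.2 CPM in MN DA, 89.5, 75.6, 82.7 and 73.8 CPM in CRV DA and 43.0, 74.0, 51.8 and 45.3 CPM in FT nDA. Cox6b1 had 74.5, 33.7, 52.6 and 42.8 CPM in FT DA, 55.3, 80.0 and 73.0 CPM in MN DA, 53.7, 59.6, 36.5 and 49.3 CPM in CRV DA and 24.8, 49.1, 27.7 and 27.3 CPM in FT nDA. Both were highest in value in FT nDA 2 within FT nDA. Cox7a2 had 67.9, 46.8, 42.6 and 27.7 CPM in FT DA, 56.2, 55.1 and 53.5 CPM in MN DA, 35.6, 49.4, 28.2 and 42.2 CPM in CRV DA and 20.5, 33.2, 19.97 and 21.0 CPM in FT nDA. Cox8a, the isoform of most tissues, had 119, 70.6, 69.0 and 72.0 CPM in FT DA, 70.3, 74.0 and 69.9 CPM in MN DA, 84.4, 72.3, 73.2 and 64.7 CPM in CRV DA and 36.2, 60.8, 44.5 and 37.5 CPM in FT nDA, with FT DA 1 the highest library. The isoforms of muscle and testis stayed under 5 CPM in every library. Cox6a2 had 1.66, 1.97, 2.96 and 1.48 CPM in FT DA, 4.04, 4.78 and 1.76 CPM in MN DA, 2.96, 0, 0.672 and 1.99 CPM in CRV DA and 0.883, 1.27, 1.56 and 1.11 CPM in FT nDA. Cox6b2 had 3.09, 0, 2.02 and 1.79 CPM in FT DA, 4.71, 0 and 0.636 CPM in MN DA, 1.51, 1.17, 0 and 4.19 CPM in CRV DA and 0.944, 1.42, 0.933 and 1.78 CPM in FT nDA. Cox7a1 had 2.94, 1.03, 0 and 2.68 CPM in FT DA, 2.73, 0.704 and 3.01 CPM in MN DA, 1.23, 0.887, 1.85 and 4.09 CPM in CRV DA and 1.17, 1.33, 0.397 and 0.805 CPM in FT nDA. At these low levels FT DA overlapped with each of the other groups in all 3, and for Cox6a2 all MN DA libraries were above all FT nDA libraries. Atp5h, the complex V member with the highest mean per kb, had 135, 115, 78.8 and 86.8 CPM in FT DA, 65.5, 105 and 129 CPM in MN DA, 94.6, 77.1, 88.1 and 112 CPM in CRV DA and 63.3, 83.0, 54.4 and 60.7 CPM in FT nDA, so that FT DA 3 lay below FT nDA 2 (log2 fold change 0.68 ± 0.23 (SE), adjusted p = 0.098).

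In food-trained mice, 16 of 82 subunit genes tested were called higher in tagged than in untagged nuclei, and 4 of them with the replicate number as a block. The summed level of the 84 members was 7786, 5318, 4949 and 5454 CPM in the 4 FT DA libraries and 3523, 4739.6, 3142 and 3329 CPM in the 4 FT nDA libraries. The groups did not overlap, and the mean was 1.60 times as high in FT DA. Of 82 members that passed the filter on low counts, 16 were called higher (3.63% of the 19786 genes tested were called higher) and 1 lower (9.17% of all genes), with edgeR's quasi-likelihood test and an adjusted p under 0.05. That test did not use the replicate numbers, and the values by complex are without the block unless it is named. Ndufa4l2, the member called lower, passed the filter through FT nDA alone, so it had to differ. Over the 76 members with a count in every library, 73 had a positive log2 fold change, the median was 0.73 (1.66-fold) and the quartiles were 0.56 and 0.98. Over all genes tested the median was -0.21, and over the 9510 genes with a mean log2 CPM over 4 it was -0.016. The 2 groups did not overlap in 28 members that were higher (6.41% of all genes) and in 3 that were lower (19.7%), of which Ndufa4l2 and Cox4i2 passed the filter through FT nDA alone. The other 65 members tested did not pass the threshold, and 46 members in all had a positive change and 2 a negative one with an unadjusted p under 0.05 (24.3% of all genes in either direction).

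**Figure D1:**
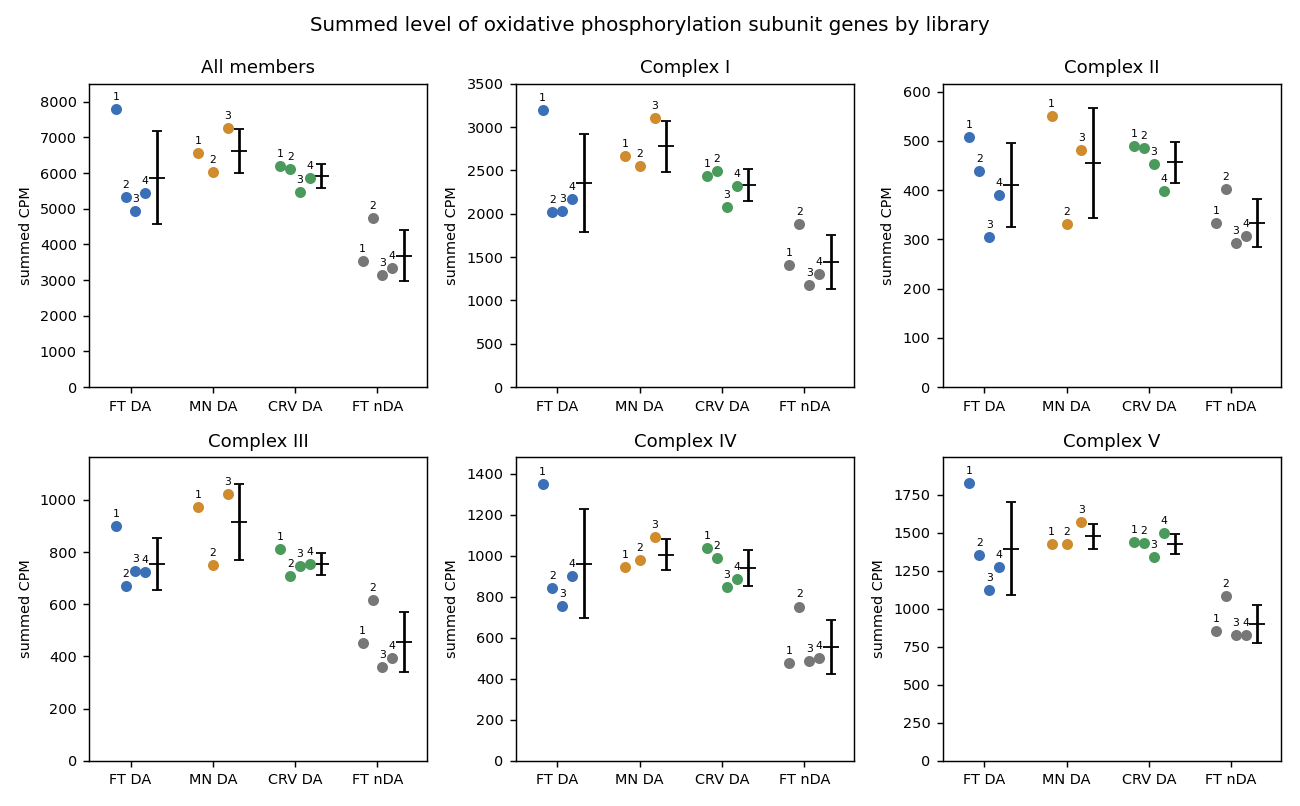
Summed CPM of all 84 members and of each complex (vertical axes, linear, from 0) in each library, grouped on the horizontal axis, with replicate numbers beside the points and the mean ± SD to their right. All FT nDA libraries lie below all DA libraries for the 84 members, FT DA 1 stands above the rest of its group, FT nDA 2 above the rest of its own, and the groups overlap in complex II.

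Complex I takes electrons from NADH and is the largest complex of the chain. Of its 35 members, 5 were called higher and none lower, 34 had a positive value, and the median log2 fold change was 0.73. Ndufb5, an accessory subunit of the membrane arm, had 248, 142, 116 and 180.1 CPM in FT DA and 81.5, 82.3, 63.1 and 85.5 CPM in FT nDA. Every FT DA library was above every FT nDA library (log2 fold change 1.15 ± 0.25 (SE), adjusted p = 0.015). Ndufb8, of the same arm, had 286, 163, 180.2 and 185 CPM in FT DA and 89.8, 131, 63.0 and 72.6 CPM in FT nDA, again without overlap (log2 fold change 1.20 ± 0.28 (SE), adjusted p = 0.0217). Ndufb10, also of the membrane arm, had 112, 97.9, 72.8 and 101 CPM in FT DA and 47.0, 57.0, 46.1 and 43.3 CPM in FT nDA, a narrower spread in both groups (log2 fold change 1.00 ± 0.20 (SE), adjusted p = 0.00844). The other complex I members called were Ndufa12, an accessory subunit (log2 fold change 1.02, adjusted p = 0.0437), and Ndufv2, a core iron-sulfur subunit of the NADH-binding arm (0.82, adjusted p = 0.0463). Ndufs1, the largest core subunit of the matrix arm, was the member with a negative value, -0.20 ± 0.27 (SE), and its groups overlapped. With the block Ndufb5 kept its call (adjusted p = 0.0356), and the other 4 did not (adjusted p = 0.053 to 0.142). The other core subunits Ndufs7 and Ndufs8 had 0.20 and 0.27, and neither was called.

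Complex II, which also works in the TCA cycle and has no subunit from mitochondrial DNA, had none of its 4 members called. Sdha, its flavoprotein, was close in both groups, with 182 ± 33.1 CPM (SD, n = 4) in FT DA and 198 ± 18.8 CPM (n = 4) in FT nDA (log2 fold change -0.10 ± 0.18 (SE), adjusted p = 0.802). Sdhb had 192, 143, 95.7 and 99.6 CPM in FT DA and 74.98, 100.3, 57.9 and 56.9 CPM in FT nDA, and FT DA 3 and 4 lay below FT nDA 2 (log2 fold change 0.88 ± 0.29 (SE), adjusted p = 0.0865). Sdhd, a membrane anchor, had log2 fold change 0.83 ± 0.25 (SE), adjusted p = 0.0645, and Sdhc, the other anchor, log2 fold change 0.22 ± 0.35 (SE), adjusted p = 0.78. In summed CPM the complex overlapped between the groups: FT DA had 508, 438, 305 and 391 and FT nDA 333, 403, 292 and 308. Whether complex II differed from the other complexes was not tested.

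Complex III passes electrons from ubiquinol to cytochrome c. Of its 8 members, 3 were called higher, all 8 were positive and the median log2 fold change was 0.70. Uqcrq, a small subunit, had 122, 81.4, 90.7 and 74.5 CPM in FT DA and 39.3, 53.8, 34.0 and 30.1 CPM in FT nDA, with no overlap (log2 fold change 1.24 ± 0.25 (SE), adjusted p = 0.0101). Uqcr11, the smallest subunit, had 64.6, 64.1, 50.6 and 55.6 CPM in FT DA and 23.9, 37.1, 22.4 and 24.0 CPM in FT nDA, and FT nDA 2 stood above its other 3 libraries (log2 fold change 1.14 ± 0.24 (SE), adjusted p = 0.0123). Uqcrc1 had 348, 262, 308 and 301 CPM in FT DA and 192, 247, 152 and 161 CPM in FT nDA, with no overlap and a smaller difference (log2 fold change 0.71 ± 0.20 (SE), adjusted p = 0.049). With the block Uqcrq kept its call (adjusted p = 0.0453), and Uqcr11 and Uqcrc1 did not (adjusted p = 0.0604 to 0.108). Uqcrfs1, the Rieske iron-sulfur protein that carries the electrons, had log2 fold change 0.57 ± 0.23 (SE), adjusted p = 0.162, and Uqcrb, the ubiquinone-binding protein, had log2 fold change 0.032 ± 0.55 (SE), adjusted p = 0.985, so neither was called.

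Complex IV, cytochrome c oxidase, reduces oxygen, and its nuclear subunits surround a catalytic core from mitochondrial DNA. Of its 18 members tested, 3 were called higher and 1 lower. Cox4i1 had 354, 230.0, 178 and 240.0 CPM in FT DA and 117, 157, 114 and 115 CPM in FT nDA, with no overlap, FT DA 1 highest and FT nDA 2 highest in its group (log2 fold change 1.00 ± 0.24 (SE), adjusted p = 0.022). Cox5a, a subunit of the matrix side, had 117, 93.8, 67.4 and 88.7 CPM in FT DA and 41.3, 57.9, 31.8 and 35.1 CPM in FT nDA, also apart (log2 fold change 1.15 ± 0.26 (SE), adjusted p = 0.0166). Ndufa4 had 113, 78.2, 76.3 and 71.2 CPM in FT DA and 31.6, 51.1, 34.0 and 50.8 CPM in FT nDA, and its lowest FT DA library was above its highest FT nDA library (log2 fold change 1.02 ± 0.25 (SE), adjusted p = 0.0263). With the block Cox5a kept its call (adjusted p = 0.0421), and Cox4i1 and Ndufa4 did not (adjusted p = 0.0646 to 0.112). Cox6c, a membrane subunit, had log2 fold change 0.076 ± 0.24 (SE), adjusted p = 0.893, and was not called. Ndufa4l2, the hypoxia-inducible paralog of Ndufa4, had 0 counts in all 4 FT DA libraries and 3.47, 5.42, 1.75 and 2.07 CPM in FT nDA, at least 40.8-fold lower in FT DA with a floor of 3 counts per library (adjusted p = 0.0067). With the block Ndufa4l2 was not called by edgeR (adjusted p = 0.146). Cox4i2, the oxygen-sensitive paralog of Cox4i1, had 0, 0.598, 0 and 0 CPM in FT DA and 1.46, 2.46, 1.35 and 0.762 CPM in FT nDA, and did not pass the threshold (adjusted p = 0.318). Like Ndufa4l2 it passed the filter on low counts through FT nDA alone, so its lower values in FT DA are a description. Both are known from pericytes and other vascular cells. All 5 vascular markers were lower in FT DA, none past the threshold, with a summed level of 0 to 73.1 CPM against 219 to 407 CPM in FT nDA, and their part in the result was not tested.

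Complex V had 5 of its 17 members called higher, none lower, and a median log2 fold change of 0.81. Atp5o, the OSCP subunit that joins the catalytic head to the peripheral stalk, had 115, 140.3, 90.6 and 101 CPM in FT DA and 47.7, 67.4, 44.0 and 47.1 CPM in FT nDA. The lowest FT DA library was above the highest FT nDA library, FT nDA 2 (log2 fold change 1.13 ± 0.22 (SE), adjusted p = 0.00801). Atp5j, coupling factor 6 of the same stalk, had 128, 111, 109 and 71.7 CPM in FT DA and 46.6, 60.9, 42.4 and 51.7 CPM in FT nDA, with no overlap (log2 fold change 1.07 ± 0.22 (SE), adjusted p = 0.0124). Atp5d, the delta subunit of the rotating central stalk, had 109.8, 51.6, 80.0 and 68.4 CPM in FT DA and 37.9, 32.8, 40.2 and 42.9 CPM in FT nDA, without overlap (log2 fold change 1.02 ± 0.25 (SE), adjusted p = 0.0284). Atp5g3, a c-ring gene, and Atp5k, subunit e of the membrane part, were the other members called (log2 fold changes 0.81 and 0.92, adjusted p = 0.0423 and 0.0433). With the block Atp5o kept its call (adjusted p = 0.0243), and the other 4 did not (adjusted p = 0.0658 to 0.145). Atp5b, the catalytic beta subunit, had 324, 198, 169.6 and 223 CPM in FT DA and 191, 215, 203 and 181 CPM in FT nDA, and the groups overlapped (log2 fold change 0.22 ± 0.22 (SE), adjusted p = 0.622). Atp5sl, now known as Dmac2, an assembly factor of complex I, had 28.0, 28.9, 15.9 and 18.9 CPM in FT DA and 47.4, 37.5, 42.6 and 38.7 CPM in FT nDA, lower in FT DA without overlap but not past the threshold (log2 fold change -0.85 ± 0.27 (SE), adjusted p = 0.0838).

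**Figure D2:**
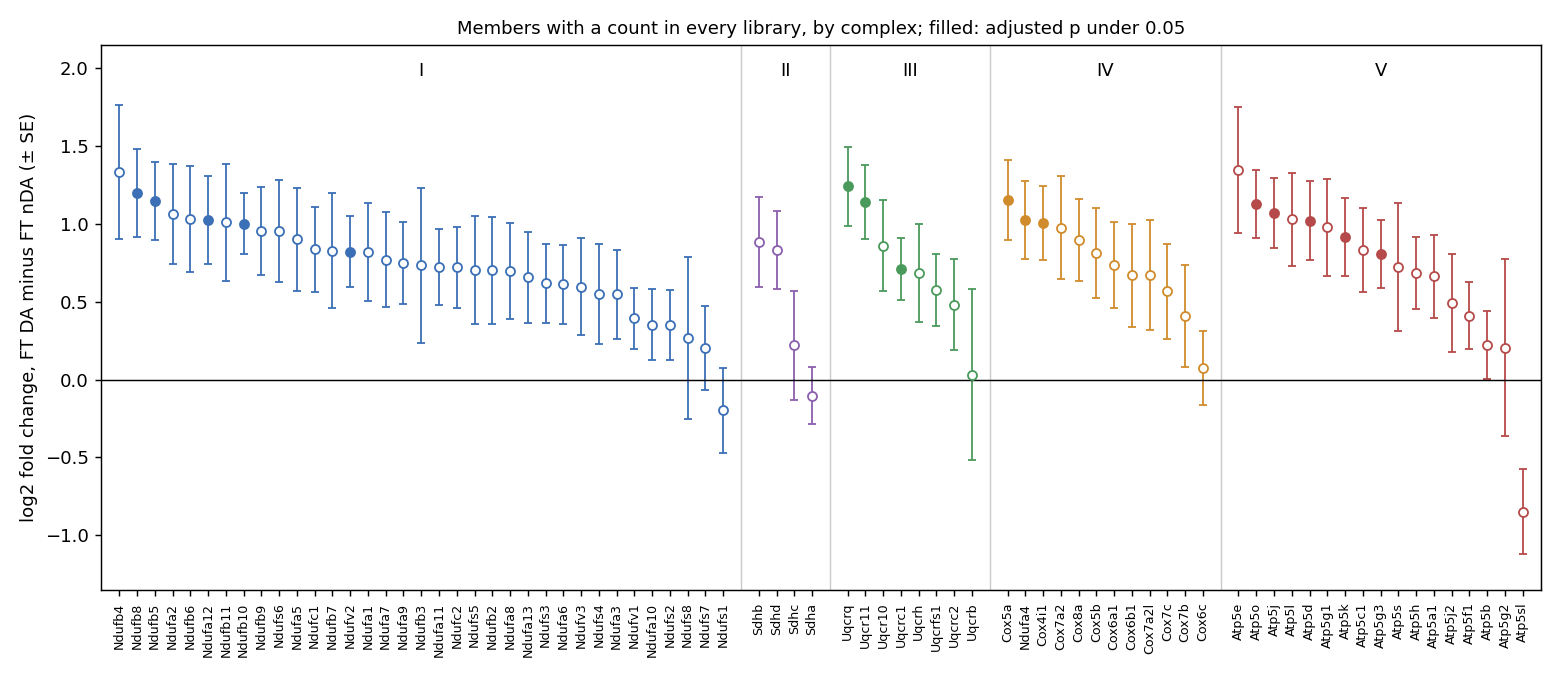
Log2 fold change of FT DA over FT nDA (vertical axis, ± SE from edgeR) for the 76 members with a count in every library, ordered within complexes I to V along the horizontal axis, filled where the adjusted p was under 0.05 without the replicate block. Of the 76, 73 lie above 0, and Atp5sl is the lowest.

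The number of calls depended on the design of the test. Same-numbered FT DA and FT nDA libraries deviated together, and with the replicate number as a block 4 of the 17 calls remained (2.09% of all genes were called higher and 1.83% lower with it), Uqcrq, Atp5o, Ndufb5 and Cox5a (adjusted p = 0.024 to 0.045), while the other 13, Ndufa4l2 among them (adjusted p = 0.146), did not pass. The median log2 fold change over the 76 members was 0.73 with the block as without it, to 2 decimals, and over all genes tested it was -0.60 with the block. Without FT nDA 1, 7 members were called (1900 of 20088 genes, 364 of them higher). Without FT nDA 3 or FT nDA 4, 8 each were called (2068 of 20215 genes, 395 higher, and 2178 of 20303 genes, 433 higher). Without FT DA 1, 10 were called (3182 of 20698 genes, 639 higher), and without FT DA 3, 26 (3740 of 20828 genes, 1145 higher). DESeq2 called 41 members, the 17 among them (18.6% of 25381 genes). Without FT nDA 1, 3 or 4, the calls lost each time were those of Atp5d, Atp5g3, Atp5k, Cox4i1, Ndufa12, Ndufb8, Ndufv2 and Uqcrc1, with Ndufa4 lost without FT nDA 1 or 3 and Cox5a without FT nDA 1 or 4. Without FT DA 1, the 7 calls lost were Atp5d (adjusted p = 0.0519), Ndufa4 (adjusted p = 0.0546), Atp5g3, Atp5k, Ndufa12, Ndufv2 and Uqcrc1. With FT DA 1 and FT nDA 2 both left out, 19 were called (2574 of 19809 genes, 514 of them higher). In that fit Atp5d (adjusted p = 0.101) and Ndufa4 (adjusted p = 0.0529) were not called, and the median over the 76 was 0.78. Without FT nDA 2 alone, the median over the members tested was 0.93.

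Members are short genes (315 to 3171 nt, median 756.5 nt), and the libraries differed by transcript length. The slope of log2 CPM on log2 length, relative to the mean of all libraries, was 0.017 to 0.230 in FT nDA and -0.161 to 0.030 in FT DA. Among genes with a mean log2 CPM over 4, those of up to 1000 nt had a median log2 fold change of 0.61 (472 genes, 371 positive), and the 45 members of that length 0.83, all 45 positive. From 1000 to 2000 nt the medians were 0.21 over 1715 genes and 0.66 over 23 members. From 2000 to 4000 nt they were -0.036 over 3830 genes and 0.29 over 6 members. With the length trend of each library taken out, the median over the 76 members was 0.42, 68 of them positive. In that fit 10 members were called, 8 higher and 2 lower (697 genes higher and 1793 lower of 19786 tested). Of the 2 lower, Ndufa4l2 passed the filter through FT nDA alone. With both the block and the length correction, edgeR called 0 members (411 genes higher and 326 lower of 19786). At an unadjusted p under 0.05 there were 22 members (4849 of all genes), and the median over the 76 was 0.40. What sets the length trend was not tested.

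Other genes of the pathway were read beside the members from lists of their own, without the block unless it is named. All 13 mitochondrially encoded subunits had positive changes, with a median log2 fold change of 0.82, and 4 were called higher: ND4 (0.77, adjusted p = 0.0173), ND1 (0.93, adjusted p = 0.0303), COX1 (0.82, adjusted p = 0.0386) and ND6 (0.88, adjusted p = 0.0404). With the block none of the 13 was called by edgeR (adjusted p = 0.0625 for ND4, the lowest of the 4), and their median was 0.83. Their summed level was 4705, 3903, 4524 and 3635 CPM in FT DA and 2057, 3354, 2396 and 2236 CPM in FT nDA. These RNAs are made in mitochondria and not in the nucleus, and the part of RNA from outside the nucleus in the members' levels was not tested. Of 53 assembly factors tested, which build the complexes without staying in them, 3 were called higher (3.63% of all genes were) and 2 lower (9.17% of all genes were), with a median of 0.31; with so few calls, the genes are named as a description. Higher were Coa3 (1.04, adjusted p = 0.0157) and Cox17 (1.09, adjusted p = 0.0473), which serve complex IV, and Timmdc1 (0.69, adjusted p = 0.0441), which serves complex I. Lower were Ttc19 of complex III (-1.48, adjusted p = 0.012) and Lrpprc, which binds mitochondrial mRNAs (-0.92, adjusted p = 0.0423). With the block Ttc19 kept its call (adjusted p = 0.0254) and the other 4 did not.

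Of 17 TCA cycle genes, Pdha1 (0.83, adjusted p = 0.0186), a subunit of pyruvate dehydrogenase, and Mdh2 (0.75, adjusted p = 0.0459), malate dehydrogenase, were called higher and none lower, with a median of 0.092. Slc25a4, the ADP/ATP carrier, was called higher (0.85, adjusted p = 0.0218) among 6 carriers tested, with a median of 0.50. None of 7 electron carrier genes was called by edgeR at the adjusted threshold; Cycs, cytochrome c, had 0.74, adjusted p = 0.222, and Etfdh, which feeds ubiquinone, had -1.24, adjusted p = 0.121. Of 17 regulators of mitochondrial biogenesis, none was called higher and 3 were called lower (9.17% of all genes were): Nrf1 (-1.30, adjusted p = 0.0077), Gabpb2, a subunit of GABP (-1.25, adjusted p = 0.0169), and Ppargc1a, the coactivator PGC-1alpha (-1.20, adjusted p = 0.0394). Their median was -0.23, beside -0.21 for all genes tested. Nrf1 had 15.0, 20.4, 21.6 and 17.1 CPM in FT DA and 42.0, 57.5, 43.1 and 41.7 CPM in FT nDA, with no overlap. With the block Slc25a4 kept its call (adjusted p = 0.0436), and Pdha1, Mdh2, Nrf1 (adjusted p = 0.0666), Gabpb2 and Ppargc1a did not. Of 77 cytosolic ribosomal protein genes, which are short and abundant like the members, 28 were called higher and none lower, 74 were positive and the median was 1.05; with the block 5 of the 28 kept their call.

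**Figure D3:**
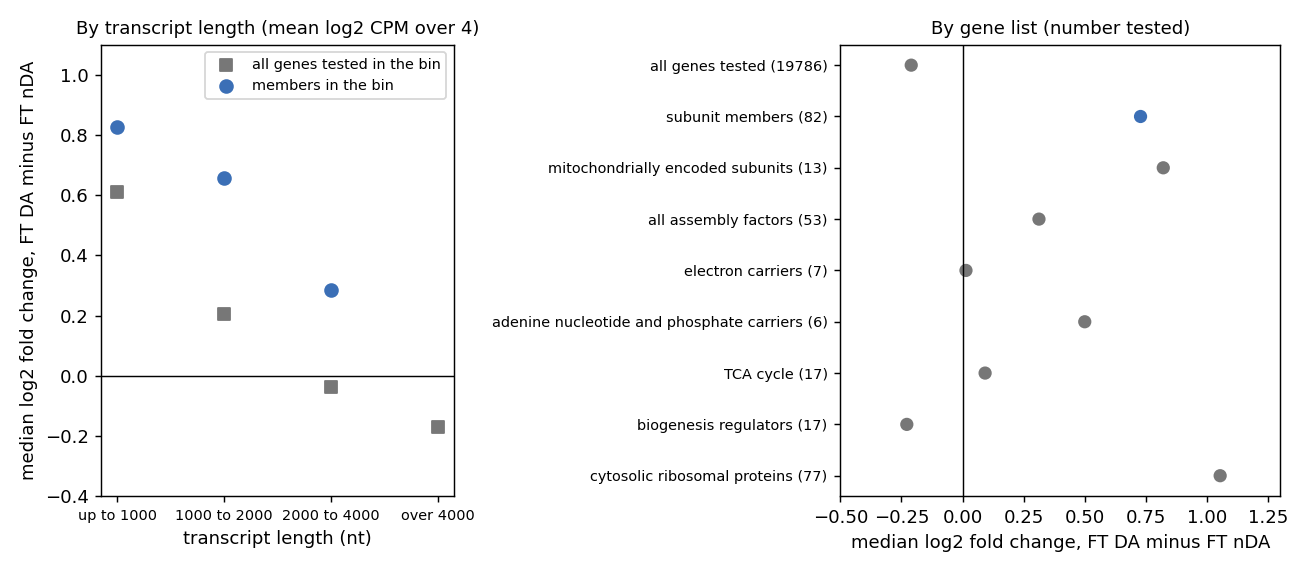
Median log2 fold change of FT DA over FT nDA. Left, by transcript length in nt among genes with a mean log2 CPM over 4, for all genes (squares) and members (circles): both fall with length, and members lie above all genes in the 3 bins that hold members. Right, by gene list with the number tested: members at 0.73, mitochondrially encoded subunits at 0.82 and ribosomal proteins at 1.05, regulators of biogenesis at -0.23.

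Across the cocaine stages, no member was called in any of the 3 comparisons between DA groups with edgeR's quasi-likelihood test at an adjusted p under 0.05. Food training and maintenance differed by small amounts: MN DA had 6563, 6044 and 7276 CPM in sum against 7786, 5318, 4949 and 5454 in FT DA, so that FT DA 1 exceeded all 3 MN DA libraries and the other 3 FT DA libraries lay below them. Of 80 members tested for MN DA against FT DA, 0 were called (0.131% of 19060 genes were, 0.00525% higher and 0.126% lower), 3 had an unadjusted p under 0.05 (11.6% of all genes), and DESeq2 called 1, Atp5d, lower (5% of 21485 genes were called by DESeq2, 3.65% lower and 1.35% higher). Over the 76 members with a count in every library the median log2 fold change was 0.22, with 58 positive, and over all genes tested it was -0.0072. Among genes of up to 1000 nt with a mean log2 CPM over 4, the median was 0.17 over 492 genes and 0.20 over 46 members. Without FT DA 1 the median over the 76 was 0.34, with 67 positive. In one fit of all 15 libraries it was 0.21, and -0.40 with 7 positive under a term for the GC trend described with the GC slopes. The stages did not overlap in 5 members that were higher in MN DA (4.31% of all genes) and in 1 that was lower (4.14%).

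Atp5d had the lowest p of the members in this comparison. Its levels were 41.3, 37.5 and 16.2 CPM in MN DA and 109.8, 51.6, 80.0 and 68.4 CPM in FT DA. All MN DA libraries lay below all FT DA libraries (log2 fold change -1.30 ± 0.36 (SE), adjusted p = 0.221). DESeq2 gave an adjusted p of 0.0122 with nearly the same fold change, -1.31. The CRV DA libraries, with 45.3, 51.7, 57.6 and 63.0 CPM, were all above the MN DA libraries. Atp5d transcripts have a GC content of 61.1%, the members' median is 51.7%, and with the GC trend of each library taken out the change was -0.87. Atp5j, of the peripheral stalk, had 63.2, 88.5 and 71.4 CPM in MN DA and 128, 111, 109 and 71.7 CPM in FT DA, which overlapped (log2 fold change -0.50 ± 0.27 (SE), adjusted p = 0.505). Cox4i2 had 0 counts in MN DA and counts in FT DA 2 alone.

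The 3 members with the lowest p among positive values were Ndufa8, Ndufb3 and Cox7a2l. Ndufa8, an accessory subunit of complex I, had 126, 65.5 and 110.2 CPM in MN DA and 82.4, 40.8, 65.0 and 57.6 CPM in FT DA, with MN DA 2 within the range of FT DA (log2 fold change 0.70 ± 0.29 (SE), adjusted p = 0.397). Ndufb3, a membrane-arm subunit, had 36.1, 39.2 and 44.2 CPM in MN DA and 27.5, 8.63, 29.0 and 17.3 CPM in FT DA, without overlap (log2 fold change 0.94 ± 0.43 (SE), adjusted p = 0.419). Cox7a2l, which joins complexes III and IV in supercomplexes, had 114, 88.9 and 95.5 CPM in MN DA and 83.7, 37.4, 42.1 and 86.2 CPM in FT DA, also without overlap (log2 fold change 0.67 ± 0.32 (SE), adjusted p = 0.445). In edgeR none of the 3 passed the adjusted threshold. With a term for the GC trend that the MN DA libraries share with FT nDA 2 (described with the GC slopes), all 3 changed sign in one fit of all 15 libraries, from 0.70, 0.94 and 0.67 to -0.20, -0.18 and -0.18.

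**Figure D4:**
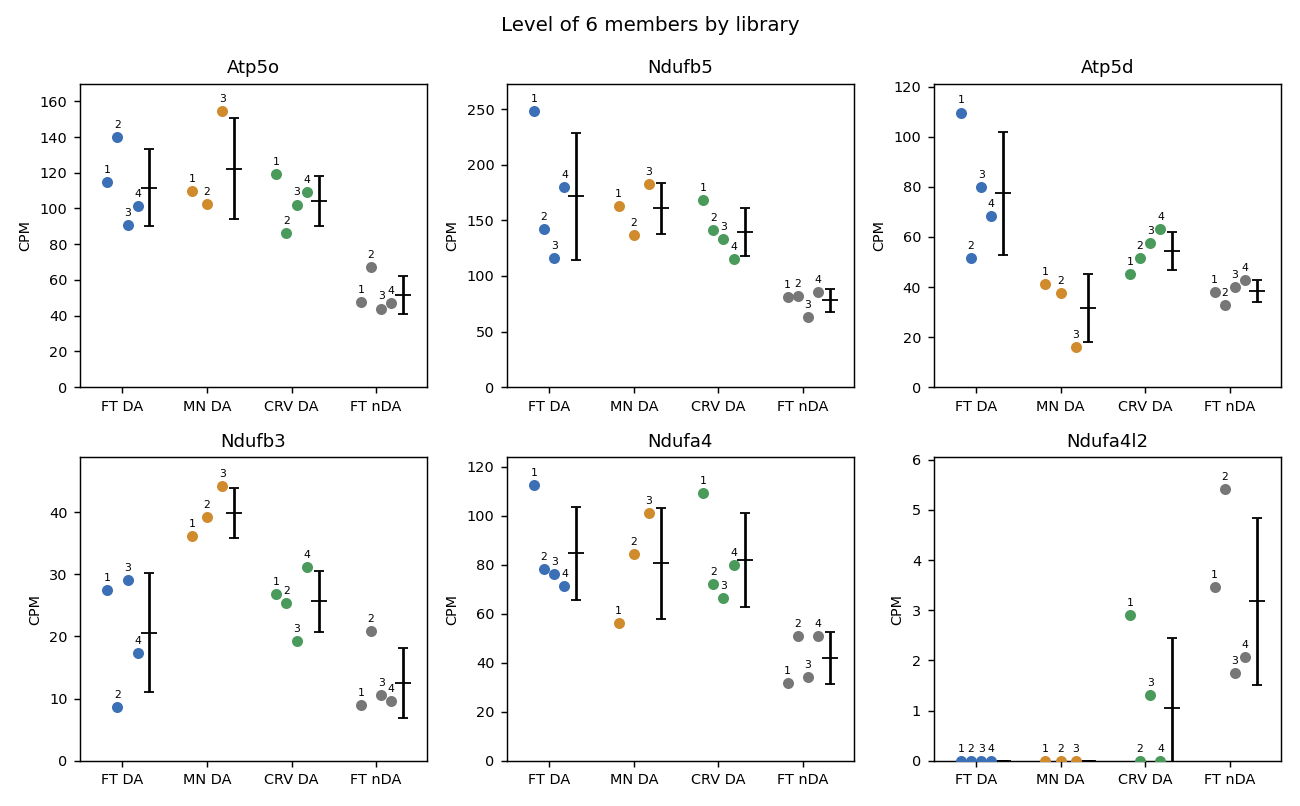
CPM (vertical axes, linear, from 0) of 6 members in each library by group, with replicate numbers and the mean ± SD. Atp5o and Ndufb5 lie higher in all DA groups than in FT nDA, Atp5d is lowest in MN DA, Ndufb3 highest in MN DA, and Ndufa4l2 has 0 counts in FT DA and MN DA.

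After 21 days of abstinence the members were near the food-trained levels. CRV DA had 6210.4, 6110.2, 5465 and 5852 CPM in sum, within the range of FT DA (7786, 5318, 4949 and 5454 CPM). FT DA 1 alone set the upper end of that range, and all CRV DA libraries lay above the other FT DA libraries. Of 80 members tested for CRV DA against FT DA, 0 were called, 0 had an unadjusted p under 0.05 and the groups overlapped in all 80 (of 19060 genes, edgeR called 0%, 4.3% had an unadjusted p under 0.05, and the groups were apart with CRV DA higher in 2.4% and lower in 0.944%). DESeq2 called 0 members and 0.782% of 21485 genes (0.568% higher and 0.214% lower). The median log2 fold change over the 76 members was -0.068, and over all genes tested 0.043. Among genes of up to 1000 nt with a mean log2 CPM over 4, the median was -0.070 over 492 genes and -0.082 over 46 members. The median over the 76 turned to 0.11 without FT DA 1, and over the members tested to 0.022 without CRV DA 3, so its sign depended on single libraries. The lowest p values among positive values were those of Ndufa8 (log2 fold change 0.43 ± 0.27 (SE), adjusted p = 1.000), Atp5sl (log2 fold change 0.60 ± 0.38 (SE), adjusted p = 1.000) and Atp5b (log2 fold change 0.34 ± 0.22 (SE), adjusted p = 1.000). Among negative values they were those of Atp5j (log2 fold change -0.42 ± 0.25 (SE), adjusted p = 1.000), Atp5d (log2 fold change -0.52 ± 0.33 (SE), adjusted p = 1.000) and Cox5a (log2 fold change -0.42 ± 0.28 (SE), adjusted p = 1.000). None of these 6 values passed, and single libraries moved them: without FT DA 1, Atp5b was at 0.56 and Atp5d at -0.30, without FT DA 2, Ndufa8 was at 0.27, and without FT DA 3, Atp5b was at 0.23. In CRV DA, Ndufa8 had 78.3, 83.5, 76.5 and 93.8 CPM, Atp5sl 41.4, 21.9, 33.7 and 41.8 CPM, Atp5j 76.3, 101, 79.6 and 60.0 CPM and Cox5a 66.7, 71.3, 75.2 and 63.5 CPM, and each overlapped with FT DA. Atp5b was even in CRV DA, with 284, 292, 297 and 295 CPM, against 324, 198, 169.6 and 223 CPM in FT DA. The comparison shares the FT DA libraries with that of maintenance, and all 3 stage comparisons share libraries, so their values are not independent.

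Between abstinence and maintenance, 0 of 80 members were called by edgeR (0.178% of 19060 genes were, 0.168% higher and 0.0105% lower) and 0 by DESeq2 (4% of 21485 genes were, 3.27% higher and 0.726% lower), and 4 had an unadjusted p under 0.05 in edgeR (9.92% of all genes). The median log2 fold change over the 76 members was -0.20, with 21 positive, and over all genes tested it was 0.053. Among genes of up to 1000 nt with a mean log2 CPM over 4, the median was -0.24 over 492 genes and -0.25 over 46 members. In one fit of all 15 libraries the median over the 76 was -0.20, and 0.38 with 69 positive under the term for the GC trend. CRV DA lay below MN DA without overlap in 16 members (4.52% of all genes), of which 10 were of complex I, and above it in 1, Atp5d (7.68%). Ndufc2, an accessory subunit of complex I, had 59.8, 44.6, 46.8 and 41.1 CPM in CRV DA and 58.0, 70.1 and 96.0 CPM in MN DA and overlapped (log2 fold change -0.64 ± 0.28 (SE), adjusted p = 0.492). Ndufa13, also known as GRIM-19, had 133, 140.2, 129 and 125 CPM in CRV DA and 182, 183 and 236 CPM in MN DA, without overlap (log2 fold change -0.61 ± 0.27 (SE), adjusted p = 0.495), and in one fit of all 15 libraries its value turned from -0.60 to 0.083 with that term. Ndufb10 had 85.4, 107, 68.1 and 82.3 CPM in CRV DA and 136, 110.5 and 119 CPM in MN DA, also apart (log2 fold change -0.51 ± 0.24 (SE), adjusted p = 0.501). Atp5d went the other way (log2 fold change 0.78 ± 0.36 (SE), adjusted p = 0.500). Cox4i2 had counts in CRV DA 2 and 3 and none in MN DA, and Cox4i1 had 272, 244, 236 and 199 CPM in CRV DA and 198, 183 and 239.8 CPM in MN DA, which overlapped (log2 fold change 0.20 ± 0.25 (SE), adjusted p = 0.991) and was -0.12 with the GC trend of each library taken out.

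The trend of level with GC content set the MN DA libraries and FT nDA 2 apart from the others. The slope of log2 CPM on the GC percentage of transcripts was -0.040 to -0.022 in the 3 MN DA libraries and FT nDA 2, and -0.017 to 0.034 in the other 11 libraries. FT DA 1, the library with the highest summed level of the members, had a slope of 0.018, outside this range of the MN DA libraries and FT nDA 2. With a term for these 4 libraries in one fit of all 15, whose size rests on FT nDA 2 alone, the median log2 fold change of the 76 members turned from 0.21 to -0.40 for MN DA against FT DA, with 7 positive. For CRV DA against MN DA it turned from -0.20 to 0.38, with 69 positive. Both starting values are from the fit of the same 15 libraries without the term. With the GC trend of each library taken out as an offset instead, the medians over the members tested stayed at 0.29 and -0.27. The sign of the members' median at maintenance thus differed between these 2 ways of treating GC. By group mean CPM, 72 of the 76 members were lowest in FT nDA, 47 were highest in MN DA, 15 in FT DA and 13 in CRV DA. No gene of the pathway lists was called in any stage comparison by edgeR.

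**Figure D5:**
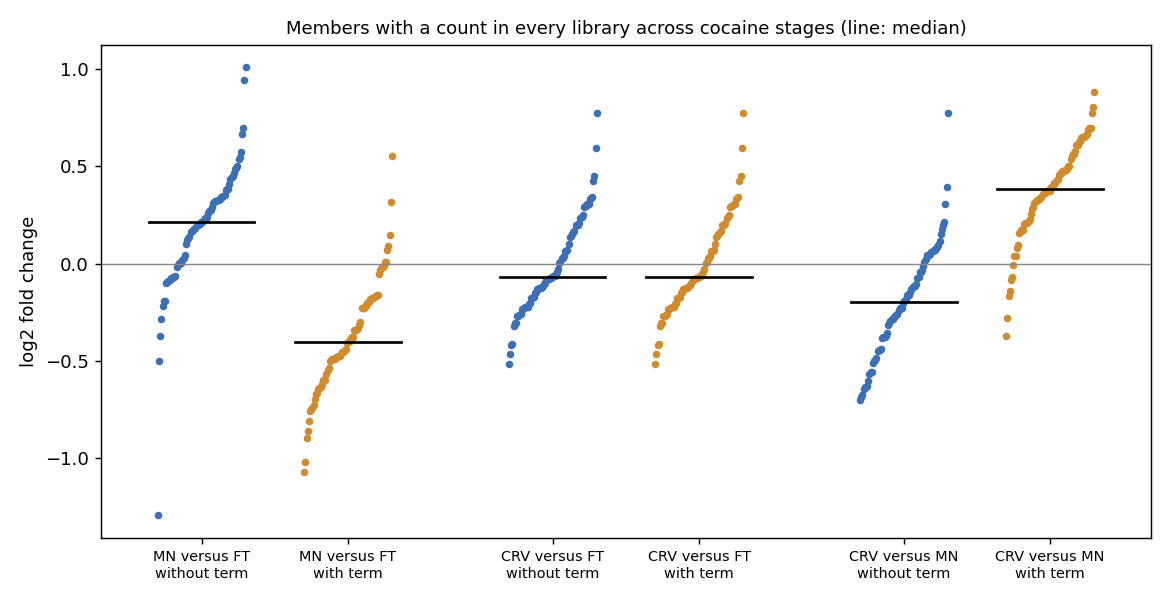
Log2 fold change (vertical axis) of the 76 members with a count in every library in the 3 comparisons of DA groups, sorted by value, from one fit of all 15 libraries without (blue) and with (orange) a term for MN DA and FT nDA 2, which share a falling GC trend; black lines mark medians. The medians of both comparisons with MN DA change sign with the term, and that of CRV DA against FT DA does not.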

How the data were processed

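RNA of sorted VTA nuclei was sequenced in 15 libraries of 4 groups. The deposited values are raw counts per gene, whole numbers with no scaling by the authors, per the file headers and values; a second deposited table of 10 columns repeats the same counts. The submitters' processing notes name Trim Galore 0.6.7, cutadapt 1.18, STAR 2.7.10a, StringTie 2.1.5, DESeq2 1.38.3 and mm10 (GRCm38); their options, the annotation and the use of strand are not given in the sources used here. Libraries were made from low-input RNA after input was evened out, so counts hold no total RNA per nucleus.

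Counts were tested with edgeR 4.0.16 in R 4.3.3 (TMM, filterByExpr, quasi-likelihood F-test, two-sided, Benjamini-Hochberg over all genes tested, adjusted p under 0.05), on 8 libraries for FT DA against FT nDA and on the 11 DA libraries for the stages. SE is the log2 fold change over the square root of F. DESeq2 1.42.0, other scalings and filters, GC and length corrections, a replicate block and each library left out were alternatives, and the fits were tested on simulated data. The members, gene lists and tests were chosen with earlier results of these data known. Values in each library of the groups compared are given for members past the threshold (up to 10 per direction, by p, otherwise the 3 lowest p), the highest per kb in each complex and isoform families. Transcript length and GC are medians over coding transcripts of GENCODE mouse release 21 that pair with a RefSeq mRNA entry, matched by symbol or synonym, with values for all 84 members. Same-numbered FT DA and FT nDA libraries deviated from their group means with correlations of 0.116, 0.127, 0.262 and 0.243, each highest with its own number. The labels do not say that the numbers mark pairs. The main test of FT DA against FT nDA did not use the numbers, and only the fits with the replicate block took them as pairs. Libraries are pools of mice, and p-values measure the spread between pools.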

Additional observations from a re-analysis of the deposited data

Results flagged for a closer look

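In groups of 4 libraries, 117 sets of values were examined for a single library far from the other 3 by Dixon's criterion (0.829 for 4 values), and 15 were marked; chance marks about 1 in 20 such sets. Values are CPM, in that library against the range of the other 3. FT nDA 2 was high for Atp5o (67.4 against 44.0 to 47.7), Uqcr11 (37.1 against 22.4 to 24.0), Cox4i1 (157 against 114 to 117) and Ndufb3 (20.9 against 8.97 to 10.5). The same library was high for Cox7a2l (58.8 against 31.1 to 34.7), Ndufa13 (139 against 85.0 to 91.4), Cox6b1 (49.1 against 24.8 to 27.7) and Cox7a2 (33.2 against 19.97 to 21.0), and for the sums of complex IV (752 against 476 to 501) and complex V (1084 against 825 to 853). FT DA 1 was high for Ndufa4 (113 against 71.2 to 78.2), Cox8a (119 against 69.0 to 72.0) and the sum of complex I (3199.7 against 2016 to 2165). Cox4i2 had 0.598 in FT DA 2 and Cox8c 0.985 in CRV DA 1, with 0 in the others of each group.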

How the results depend on the processing

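For FT DA against FT nDA, 17 members were called (2534 of 19786 genes, with calls over all genes also in brackets below). The replicate block gave 4 (775 of 19786), and the block with GC correction 5 (843 of 19786). The block with length correction gave 0 by edgeR (737 of 19786), with 22 members at an unadjusted p under 0.05. The length correction alone gave 10 (2490 of 19786) and one fit of all 15 libraries 27 (1968 of 21812). That fit with a term for the falling GC trend gave 28 (965 of 21812), and DESeq2 41 (4728 of 25381). Leaving out one library at a time gave 7 to 26, by edgeR (1900 to 3740 genes). DESeq2 size factors and upper quartile scaling gave 21 and 22 (2571 and 2591 of 19786), and no filter 12 (2653 of 26807). At least 10 counts in every library gave 16 (1643 of 12204), GC correction 15 (2591 of 19786), and both high libraries left out 19 (2574 of 19809). The median over the members tested stayed positive in all 21 alternatives, from 0.38 with block and length correction to 0.96 with the term. For the stages, edgeR called 0 members in every alternative, and DESeq2 called 1 for MN DA against FT DA. The block left these counts at 0; same-numbered libraries of the stages deviated with correlations of -0.35 to 0.11, so the numbers did not pair them. The term turned the sign of Ndufa8 (-0.20), Ndufb3 (-0.18) and Cox7a2l (-0.18) for MN DA against FT DA and of Ndufa13 (0.083) for CRV DA against MN DA, and GC correction that of Cox4i1 (-0.12); the cause was not tested. The GC-trend term was fitted in place of a batch, since no batch is named in the labels. The length correction, the corrections joined to the block, the term for FT DA against FT nDA, the fit of all 15 libraries for the 3 stage comparisons (the base for the term) and leaving out both high libraries were chosen after seeing the data. With 3 or 4 libraries a group, the median SE of a member was 0.28 to 0.30 on the log2 scale, so differences near that size were not detectable with these libraries. Larger ones also went without a call by edgeR, such as 0.88 for Sdhb in FT DA against FT nDA and -1.30 for Atp5d in MN DA against FT DA. The stage comparisons without calls thus do not exclude changes of such size.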

Other observations

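Some subunits carry symbols that the rule did not reach, and 5 of them were tested in FT DA against FT nDA. Usmg5, a small subunit of the ATP synthase membrane part, had 76.3, 35.2, 53.8 and 37.7 CPM in FT DA and 13.1, 27.6, 13.8 and 15.6 CPM in FT nDA, and was called higher (1.54, adjusted p = 0.0226), but not with the replicate block (adjusted p = 0.116). Not called were Cyc1, cytochrome c1 of complex III (0.56 ± 0.23 (SE)), Ndufab1, the acyl carrier subunit of complex I (0.46 ± 0.31 (SE)), 2010107E04Rik, another small ATP synthase subunit (0.68 ± 0.36 (SE)), and Atpif1, the inhibitor of the ATP synthase (0.74 ± 0.30 (SE)). All 5 log2 fold changes were positive, with a median of 0.68. In edgeR none of the 5 passed the adjusted threshold in the stage comparisons, where their medians were 0.18 for MN DA against FT DA, -0.069 for CRV DA against FT DA (none of the 5 positive) and -0.36 for CRV DA against MN DA.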
